A study of Mus musculus with 2 samples.

Results

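The transcripts described here are those whose annotated biotype is nonsense-mediated decay (NMD). They were taken from the table by that label alone, which is assigned from transcript structure and uses no count. The label held 4903 of the 109463 annotated transcripts and 3173 of the 45578 genes. Of these genes, 2023 had a summed mean count of at least 10 on their NMD-labelled transcripts, and values per gene are given for them. Footprints came from the polysomes of brains of control mice at postnatal day 5, with the genotype Smn+/-; SMN2tg/0 on the FVB strain. Both samples shared that genotype and formed 1 group of 2 biological replicates. There was no comparison between conditions, and the controls thus also carried 1 disrupted Smn allele and the human transgene.

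Nonsense-mediated decay is a surveillance pathway that degrades mRNAs on which a ribosome terminates well upstream of an exon junction. UPF1 and its partners recognise such a termination event, so a target must be engaged by ribosomes before it is degraded. Cells also use the pathway to lower the output of normal genes, as splicing factors do when they include "poison" exons in their own transcripts. In the brain, exons of this kind are known in genes of synaptic scaffolds and of neuronal splicing regulators. The label is meant for transcripts with an annotated stop codon of this type. It does not show such a stop in every case, as annotated 3' untranslated lengths of labelled transcripts began at 0 nucleotides. The label is not a measurement of decay.

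Replicate 2 was the deeper library, with 5261878 footprints against 1866831 in replicate 1. With a floor of 3 counts, a transcript with no footprint could have had up to 1.61 CPM (counts per 1000000 footprints) in the shallower library and 0.570 CPM in the deeper one. Only counting error enters these floors, the intervals and the p-values. PCR copies are not independent molecules, so even that error may be understated. The 9 genes chosen as markers of neurons, astrocytes, oligodendrocytes, microglia and endothelium were detected in both libraries at 82.5 CPM or more. Of the genes chosen as markers of other tissues, Alb of liver was at 0 in both and Ins2 of pancreas had 1 footprint in all. Acta1 of skeletal muscle had 140 and 264 footprints, a count that is uncertain because actin genes are nearly identical in their coding sequence.

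NMD-labelled transcripts were built differently from coding ones. Their median annotated length was 1290 nucleotides, against 1845 for protein coding transcripts. The median coding sequence was 309 nucleotides against 975, and the median 3' untranslated region was 679 nucleotides against 339. The coding sequence therefore covered a median of 30.1% of an NMD-labelled transcript and 63.7% of a coding one. No 5' untranslated region was annotated for 31.6% of them, and in 876 the coding length was not a multiple of 3.

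These transcripts together took 3.97% ± 0.383 of all footprints (SD, n = 2). Their share was 3.70% in replicate 1, from 69055 footprints (Clopper-Pearson 95% interval 3.67 to 3.73), and 4.24% in replicate 2, from 223173 footprints (4.22 to 4.26). The intervals did not overlap. At least 1 footprint lay on 3850 of the 4903 transcripts in replicate 1 and on 4360 in replicate 2, and 500 had none in either. A mean of 10 counts or more was reached by 2628 transcripts, or 53.6%, and by 27303 of 49617 protein coding transcripts. The median density of those 2628 was 5.50 CPM per kilobase of transcript, against 5.85 for coding transcripts that reached the same count. Divided by the coding length alone, the medians were 21.1 for NMD-labelled and 10.9 for coding transcripts. Divided by the 3' untranslated length alone, they were 10.03 and 18.8. The order of the classes thus depended on which length was used.

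The 2023 genes held 97.9% of the NMD-labelled footprints in replicate 1 and 97.6% in replicate 2. A single labelled transcript was annotated in 1210 of them, 2 in 511 and 3 or more in 302, up to 13 in Tmem234. The share of a gene's footprints that fell on its NMD-labelled transcripts had a median of 22.2% in replicate 1 and 23.1% in replicate 2. The middle 50% of genes lay between 14.4% and 34.0%, as a mean of the replicates. In 97 genes the share was above 50% in both libraries, and in 242 it was below 10% in both. An NMD-labelled transcript was the gene's most abundant one in both libraries in 148 genes, or 7.32%. Of the 2023 genes, 30 had no protein coding transcript at all, and in 27 of these every annotated transcript carried the label, which fixes the share at 100%.

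At the threshold, 26 genes had a summed mean count of exactly 10 and 34 had 9.5. Just inside lay Map2k3 with 2 and 18 footprints, Smpd2 with 5 and 15, and Pcsk4 with 1 and 19. Just outside lay Narfl with 3 and 16 footprints, Hyi with 5 and 14, and Unkl with 5 and 14. In these genes near the threshold, the deeper library gave most of the footprints. Of the 2023 genes, 1455 had at least 10 labelled footprints in each replicate.

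**Figure D1:**
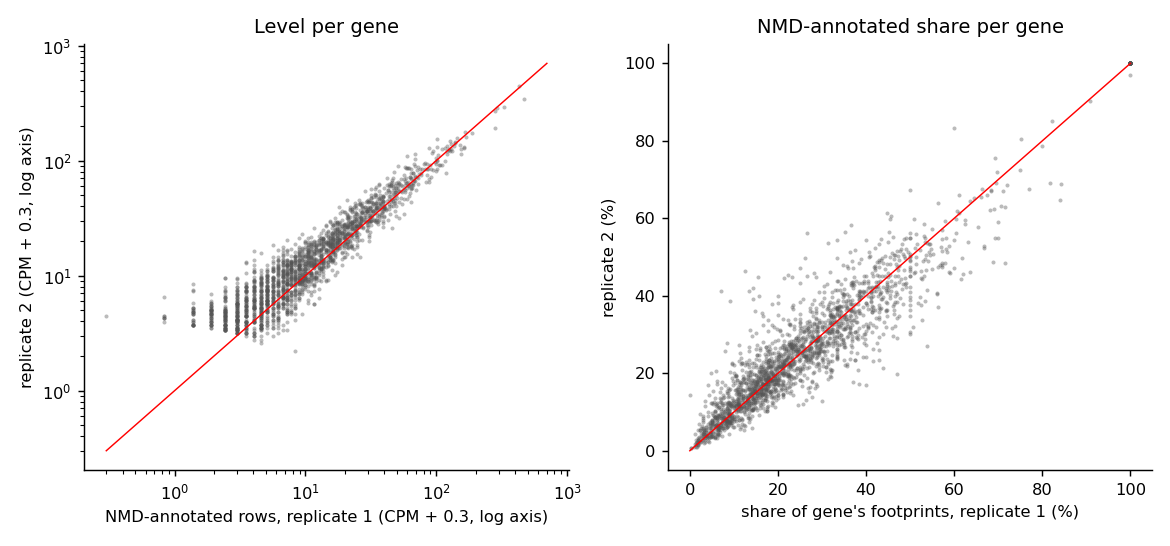
Each point is 1 of the 2023 genes. The left panel plots the summed level of its NMD-labelled transcripts (CPM plus 0.3, both axes logarithmic) in replicate 1 against replicate 2, and the right panel plots the share of the gene's footprints on those transcripts in percent. The red line marks equality. Shares scatter evenly about the line, with medians of 22.2% and 23.1%, and low levels are absent because a mean count of 10 was required.

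The 10 genes with the highest summed level held 7.40% of the NMD-labelled footprints in replicate 1 and 5.86% in replicate 2, so no few genes dominated. Ctnnb1 (ENSMUSG00000006932), which encodes the adhesion and Wnt signalling protein beta-catenin, was first with 799 and 2323 footprints, or 428 and 441 CPM. Its mean of 435 ± 9.53 CPM (SD, n = 2) came from 4 labelled transcripts, which held 38.9% ± 1.87 of the gene's footprints. Its 4 labelled transcripts were not called different between the replicates.

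Actg1 (ENSMUSG00000062825), a cytoplasmic actin, followed with 870 and 1788 footprints on 1 transcript, or 466 and 340 CPM. That transcript held 17.6% and 17.3% of the gene, so its level was lower in replicate 2 while its share was nearly the same. Actin genes are near-identical, and this count is uncertain to that extent. Ywhae, the 14-3-3 protein epsilon, had 282 and 190 CPM and shares of 22.1% and 19.3%, so both its level and its share were lower in replicate 2. The share difference was not called by Fisher's exact test after adjustment, and neither was that of any of the 1996 genes tested.

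Ddx5, an RNA helicase, had 544 and 1497 footprints on 2 labelled transcripts, which took 36.1% and 36.3% of the gene. Atp2a2, the calcium pump of the endoplasmic reticulum, had 523 and 1431 footprints on 1 transcript, with shares of 33.1% and 33.5%. The replicates differed by less than 1 percentage point in both genes. Kif21b, a kinesin motor, had 347 and 920 footprints and shares of 46.6% and 45.2%. Psmd2, a subunit of the proteasome's regulatory particle, had 310 and 935 footprints and shares of 39.2% and 41.0%. Ndrg4, a member of the N-myc downstream regulated family, had low shares as Actg1 did, with 17.6% and 17.9% from 314 and 841 footprints. Skp1a, an adaptor of SCF ubiquitin ligases, had 267 and 823 footprints and shares of 33.5% and 36.8%. Gm28062, a gene known only by its model name, had 611 and 1522 footprints on 3 transcripts that all carried the label. By the exact binomial test, Gm28062-001 (adjusted p 5.6e-07), Atp2a2-003 (0.0396) and Kif21b-001 (0.0304) were called lower in replicate 2. The same test called 5.48% of all tested transcripts lower.

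Annotated coding sequences in these genes ranged from a small fragment to the full length. Psmd2-002 had a coding sequence of 183 nucleotides, 6.71% of the gene's longest one, and a 3' untranslated region of 2805 nucleotides. It nevertheless held 310 and 935 footprints, beside 359 and 941 on the coding transcript Psmd2-001, whose coding sequence is 2727 nucleotides. Per coding nucleotide this came to 1.69 and 5.11 footprints on Psmd2-002. As CPM per kilobase of transcript it came to 55.3 and 59.2, against 64.9 and 60.4 on Psmd2-001. The 2 transcripts, at 3001 and 2961 nucleotides, were alike in length and in count, and unlike in coding length.

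Ndrg4-010 showed the same relation, with 246 coding nucleotides and 314 and 841 footprints. Ndrg4-002, with 1020 coding nucleotides, had 349 and 851. Atp2a2-003, by contrast, carried the full coding length of 3135 nucleotides and had 523 and 1431 footprints, beside 525 and 1404 on the coding Atp2a2-001. Kif21b-001 likewise had a coding length at 101% of the longest coding one, with 326 and 847 footprints beside 302 and 826 on Kif21b-002. Counts on the labelled and the coding transcript were close in all 4 genes, whether the labelled coding sequence was short or complete.

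Density per length allows transcripts of different genes to be compared. The highest mean density of a labelled transcript of at least 200 nucleotides was that of Ywhae-002, at 470 and 317 CPM per kilobase. Actg1-002 followed at 392 and 286. Hsp90ab1-007, from the gene of a cytosolic HSP90 chaperone, had 219 and 178, and Ppp2r1a-007, from the gene of a scaffold subunit of protein phosphatase 2A, had 202 and 149. Vdac1-003, from the gene of a mitochondrial outer membrane channel, had 158 and 142. All 5 were lower in replicate 2, with log2 ratios between -0.75 for Ywhae-002 and -0.34 for Vdac1-003. Each passed the exact binomial test after Benjamini-Hochberg adjustment, with the highest adjusted p at 0.0215 for Vdac1-003. That test covers counting noise alone, and it called 5.48% of all tested transcripts lower in replicate 2. Lower ratios were general at high density, with a median of -0.29 over all transcripts in the densest of 10 groups.

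Genes of at least 100 mean footprints with a coding transcript were ranked by share. Gm28036 came first with 57 of 57 footprints in replicate 1 and 230 of 237 in replicate 2, on 7 labelled transcripts. Its only coding transcript is annotated with 162 coding nucleotides and no 3' untranslated region. Rabggtb, the catalytic subunit of the Rab prenylation enzyme, followed with 85 of 113 footprints and 357 of 444, or 77.8% ± 3.67 (SD, n = 2). It has 9 labelled transcripts among 12. Zdhhc3, a protein palmitoyltransferase, had a share of 70.8% ± 1.55 with 8 labelled transcripts among 11. In these genes the label covers most of the annotation.

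The other 7 had shares between 64.9% and 67.8%. Tmem234 had 67.8% ± 0.924 from 13 labelled transcripts. Snapc3, of a complex that acts in the transcription of small nuclear RNA genes, had 67.7% ± 0.754 from 4. Desi1, a desumoylating isopeptidase, had 67.0% ± 0.905 from 4. Capn7, a calpain, had 66.8% ± 0.977, Pakap 65.8% ± 0.520, Tmem208 65.1% ± 4.24 and Lrrc40 64.9% ± 0.526. The replicates differed most in Tmem208, with 68.1% and 62.1%. Capn7 has 3 transcripts, of which 2 carry the label. Their counts were 40 and 148 on Capn7-002 and 39 and 145 on Capn7-003, beside 38 and 150 on the coding Capn7-001. The labelled ones have 1527 coding nucleotides against 2442, and the 3 counts were almost equal in each library.

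**Figure D2:**
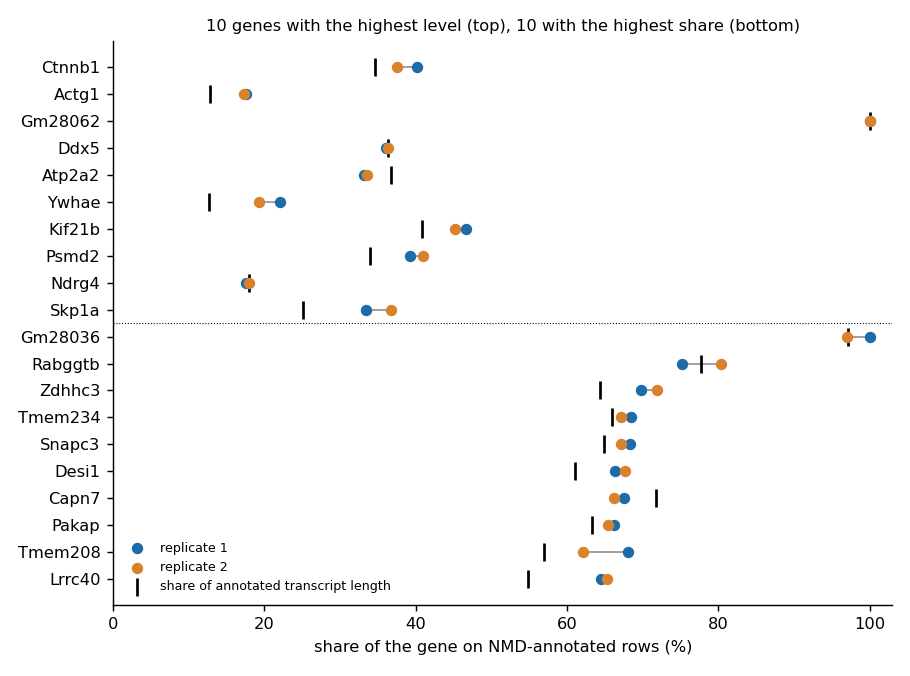
The share of each gene's footprints on NMD-labelled transcripts, in percent, is drawn for replicate 1 (blue) and replicate 2 (orange), with the labelled share of the gene's annotated transcript length as a black bar. The upper 10 genes have the highest levels and the lower 10 the highest shares. Both points lie on the bar for Ddx5, where the shares were 36.1% and 36.3% and the labelled length was 36.3%.

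The share of footprints followed the share of annotated length across genes. Over the 2023 genes the labelled share of length had a median of 19.0% and the labelled share of footprints a median of 22.7%. The median difference was 2.74 percentage points, and the footprint share was the higher one in 1395 genes. Spearman's rho across genes between the 2 shares was 0.859. Transcripts of a gene share exons, a gene's total enters every share, and genes are not replicates, so this is a description without a test. A mean NMD count of at least 10 was required, which favours higher shares.

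The density of labelled transcripts was then set against that of the coding transcripts of the same gene. To avoid a filter on the labelled counts themselves, all 3905 labelled transcripts of the 2484 genes with a mean coding count of at least 10 were used. Per nucleotide of transcript, the median log2 ratio was 0.10 in replicate 1 and 0.08 in replicate 2, so a labelled transcript carried about as many footprints per nucleotide as the coding transcripts of its gene. The middle 50% lay between -0.50 and 0.68 in replicate 1 and between -0.34 and 0.52 in replicate 2. Per nucleotide of coding sequence, the medians were 0.99 and 0.97.

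The ratio per coding nucleotide was lower the more complete the coding sequence, and the ratio per transcript nucleotide moved over a smaller range with no single direction. Coding length enters both the grouping and the ratio per coding nucleotide. A fall of that ratio is therefore built in wherever counts do not scale with coding length. Among 842 labelled transcripts whose coding sequence was at most 10% of the gene's longest coding one, the median log2 ratio per coding nucleotide was 1.90 in replicate 1 and 1.74 in replicate 2. It was 0.91 and 0.95 for the 970 transcripts between 25% and 50%, and 0.09 and 0.11 for the 219 between 75% and 100%. Per nucleotide of transcript, the medians in the same order were -0.05 and -0.02, 0.17 and 0.14, and 0.09 and 0.12. In the 113 transcripts at 100% or more, the medians were -0.03 and -0.11 per transcript nucleotide and 0.00 and -0.03 per coding nucleotide. In the 165 labelled transcripts with exactly the coding length of a coding transcript of the gene, the medians per transcript nucleotide were 0.00 and -0.02. Over the whole transcript, the medians of all 6 groups lay between -0.11 and 0.17.

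**Figure D3:**
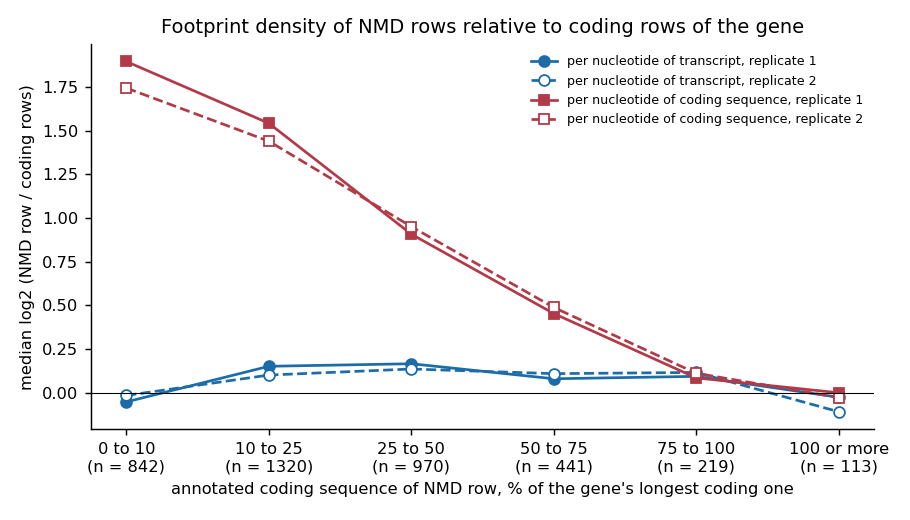
Median log2 ratio of the footprint density of NMD-labelled transcripts to that of the coding transcripts of the same gene, by the length of the labelled coding sequence as a percentage of the gene's longest coding one. Circles give density per nucleotide of transcript and squares per nucleotide of coding sequence, with replicate 1 solid and replicate 2 dashed. The squares fall from 1.90 to near 0, while the circles stay within 0.2 of 0. Coding length enters both the grouping and the squares, so their fall is in part built in.

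Both ratios differed with the length of the 3' untranslated region, in opposite directions. This region is part of the transcript length that divides the ratio per transcript nucleotide, so grouping and ratio are not independent. In the fifth of transcripts with the longest regions, at 1971 nucleotides or more, the median log2 ratio was 1.88 and 1.95 per coding nucleotide and -0.13 and -0.11 per transcript nucleotide. In the fifth with the shortest, at up to 295 nucleotides, it was 0.38 and 0.32 per coding nucleotide and 0.27 and 0.20 per transcript nucleotide. In 280 genes with exactly 1 labelled and 1 coding transcript, the log2 ratio of their counts in replicate 2 correlated more closely with the ratio of transcript lengths (Spearman's rho 0.748) than with the ratio of coding lengths (0.551), and the replicate 1 values were 0.686 and 0.529. The length ratios correlated with each other at 0.483. These are correlations across genes of the same libraries, given without a test.

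Counts belong to whole transcripts, and the position of a footprint within a transcript was not analysed here. A fragment from an exon shared with a coding transcript cannot be told apart from one that belongs to the labelled transcript alone, and how the authors assigned shared fragments is not stated. The part of shared exons in the counts was not tested.

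Retained intron and processed transcripts, the other non-coding labels within coding genes, lay lower under the same filter. Their median log2 ratios per transcript nucleotide were -0.69 and -0.69 for 13237 retained intron transcripts and -0.29 and -0.33 for 9771 processed transcripts, in replicates 1 and 2. The labelled share of footprints had a median of 19.3% for NMD, against a length share of 16.6%. For retained introns the footprint share of 15.3% lay below the length share of 24.5%. The order of the 3 classes was the same in both libraries, and was not tested.

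Next, 9 gene lists were examined. They cover splicing factors and their kinases, the spliceosome, NMD factors, neuronal genes with NMD-linked exons, the integrated stress response, the SMN complex and ribosomal proteins. The test of a share difference between the replicates called 0 of all 1996 genes tested (0%), and thus no list member. Of the 13 SR proteins, which bind exonic enhancers and control their own levels through poison exons, 8 had a labelled transcript and all 8 reached the count of 10. Their 13 labelled transcripts together took 248 and 254 CPM. The labelled transcripts held 18.3% and 18.7% of the footprints of these 8 genes, and the median share per gene was 23.05%, beside 22.7% for all 2023 genes.

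Srsf2 had 154 and 340 labelled footprints, or 30.9% ± 0.0534 of the gene (SD, n = 2). Of these, 148 and 333 lay on Srsf2-002, whose coding sequence has the same 666 nucleotides as that of the coding transcript Srsf2-001 with 164 and 338. Srsf2-003, with 59 coding nucleotides in a transcript of 620, held 6 and 7. Few footprints were thus counted on Srsf2-003, while Srsf2-002, with a complete coding sequence, had nearly the count of Srsf2-001. How many of these footprints came from shared exons was not tested, so the counts do not give the abundance of each form. Srsf2-002 was called lower in replicate 2 (log2 ratio -0.51, adjusted p 0.0115 by the exact binomial test).

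Srsf3-002, with 375 coding nucleotides against 495, had 88 and 267 footprints beside 117 and 278 on Srsf3-001, and the share of the gene was 22.9% and 27.4%. Srsf6-002, with 408 against 1020 coding nucleotides, had 81 and 220 beside 73 and 246 on Srsf6-001. Tra2b-003, with 117 against 867 coding nucleotides, had 48 and 224 beside 53 and 247 on Tra2b-001. In these 3 genes the labelled and the main coding transcript had similar counts in each library, but not always similar densities. As CPM per kilobase of transcript, Srsf6-002 had 26.0 and 25.1 against 11.1 and 13.3 on Srsf6-001. Tra2b-003 had 16.2 and 26.8 against 8.34 and 13.8 on Tra2b-001, and Srsf3-002 had 24.6 and 26.4 against 24.4 and 20.6 on Srsf3-001. The lowest share of the list was that of Srsf5, at 4.62%, from 26 and 46 footprints.

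Of 51 hnRNPs and other splicing regulators, 18 had a labelled transcript and all 18 reached the count of 10. Their 46 labelled transcripts took 907 and 1103 CPM, 21.1% and 20.2% of these genes' footprints, with a median share of 19.5%. Hnrnpdl had the highest share at 48.5% ± 3.56, from 233 and 659 footprints. Khdrbs1, the signalling and splicing protein Sam68, had 301 and 678 footprints on Khdrbs1-001, a transcript with the full coding length of 1332 nucleotides. Its share was 42.6% in both libraries. The exact binomial test called Khdrbs1-001 lower in replicate 2 (log2 ratio -0.51, adjusted p 3.4e-05). Hnrnpd had 240 and 737 footprints on 4 labelled transcripts, with shares of 27.4% and 27.9%. Tardbp, which encodes TDP-43, had 10 labelled transcripts with 128 and 596 footprints and shares of 36.3% and 38.0%. The most abundant of them was Tardbp-011, with 48 and 192 footprints and 255 coding nucleotides against 1245. Hnrnpr had the lowest share of the list at 4.61%.

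All 5 of the SR protein kinases with a labelled transcript, of 9 listed, reached the count of 10, with a median share of 20.3%. Srpk2 led with 96 and 325 footprints and a share of 35.9% ± 0.628. Srpk1 had 29 and 123 footprints, with shares of 18.0% and 22.2%. Clk1, a kinase that phosphorylates SR proteins, had only 4 and 49 footprints on 2 labelled transcripts, and shares of 17.4% and 26.8%. Clk2 had 13 and 23, with shares of 17.6% and 10.3%. The low counts in replicate 1 leave the shares of both Clk genes poorly determined.

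The pathway's own genes were examined in the same way. Of 24 NMD factors and exon junction proteins, 3 had a labelled transcript. Smg6, the endonuclease that cleaves targets, had 8 and 45 labelled footprints and shares of 18.2% and 25.0%. Smg5, an adaptor in target decay, had 7 and 17 with shares of 8.33% and 7.14%, and Magohb, an exon junction protein, 7 and 47 with shares of 36.8% and 49.0%. The median share of the 3 was 21.6%. Magohb had 19 and 96 footprints in all. The low labelled counts in replicate 1 leave the shares of all 3 genes poorly determined. None of the 15 genes listed for the integrated stress response had a labelled transcript.

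Of 27 core spliceosome genes, 8 had a labelled transcript and 7 reached the count of 10, all but Prpf3, with a median share of 17.9%. Snrpb, an Sm protein, had 121 and 304 footprints and a share of 31.2% ± 0.981, on a transcript with 213 coding nucleotides against 696. Sf1, which binds the branch point, had 79 and 290 with shares of 17.2% and 18.2%. Snrpa1, of the U2 particle, had 37 and 74 with shares of 33.3% and 24.4%. Snrpe, another Sm protein, had 10 and 95 with shares of 13.3% and 22.4%. Snrpe-005 was called higher in replicate 2 by the exact binomial test, at a log2 ratio of 1.49 and an adjusted p of 0.00804. The share of its gene did not pass.

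Among 9 genes with NMD-linked exons in neurons, 7 had a labelled transcript and all 7 reached the count of 10. Gabbr1, a subunit of the GABA-B receptor, had 258 and 753 footprints on Gabbr1-005, or 138 and 143 CPM, with shares of 20.2% and 23.5%. Ptbp2, the neuronal polypyrimidine tract binding protein, had 112 and 449 with shares of 26.1% and 24.4%. Its transcript Ptbp2-008, with 1071 coding nucleotides against 1599, held 82 and 347 of these. Dlg4, which encodes the postsynaptic scaffold PSD-95, had only 25 and 66 labelled footprints of 440 and 1270, and the lowest share of the list at 5.44% ± 0.343.

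Of the 9 genes of the SMN complex, which assembles spliceosomal particles, 3 had a labelled transcript. Gemin4 had no labelled footprint in either library. Smn1, for which the animals were heterozygous, had 6 and 27 labelled footprints of 71 and 253, or 9.56% ± 1.57, and footprints of the human transgene were not separated from it. Ddx20 had 15 of 39 and 23 of 133, with shares of 38.5% and 17.3% that rest on few counts. Of 79 ribosomal protein genes, 10 had a labelled transcript, and all 10 reached the count of 10. Together these took 363 and 374 CPM, 14.7% and 14.2% of the footprints of their genes. The median share was 14.5% and the range 6.10% in Rpl9 to 20.8% in Rpl10a. Rps9 had 165 and 363 labelled footprints, Rpl13a 107 and 278, Rpl10a 91 and 303 and Rpl6 74 and 212. Ribosomal proteins have many processed pseudogenes, which leaves these counts uncertain. Rps9-009 was called lower in replicate 2, at a log2 ratio of -0.54 and an adjusted p of 0.00297 by the exact binomial test.

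**Figure D4:**
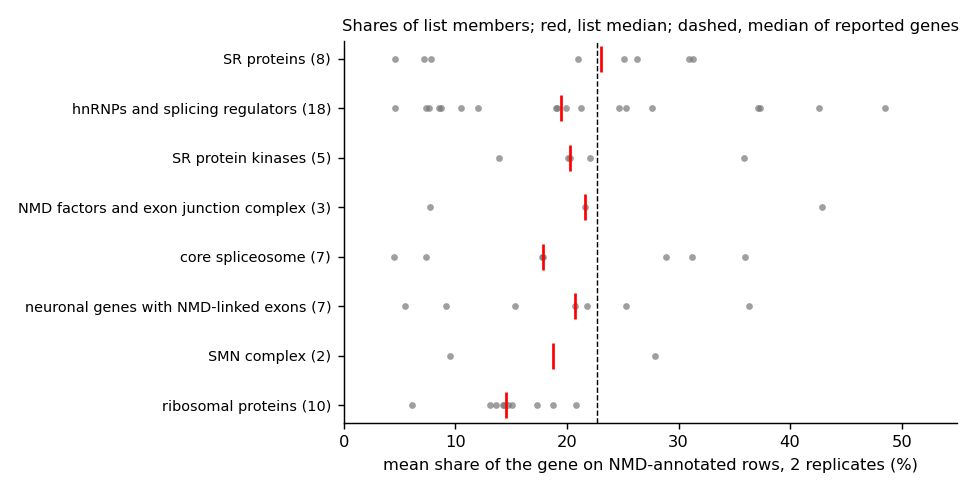
Each grey point is the mean share, in percent over 2 replicates, of 1 listed gene's footprints on NMD-labelled transcripts, for the genes that reached a mean of 10 counts (their number is in brackets). The red bar is the list median and the dashed line the median of all 2023 genes, 22.7%. The list medians lie between 14.5% for ribosomal proteins and 23.05% for SR proteins.

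The replicates were compared transcript by transcript with a two-sided exact binomial test, with counts set against the ratio of effective library sizes by TMM (trimmed mean of M values). P-values were adjusted over all 43655 transcripts that reached a mean of 10 counts. Of the 2628 NMD-labelled ones, 69 were called (2.63%), 27 higher (1.03%) and 42 lower (1.6%) in replicate 2. Over all transcripts 6.15% were called, 0.662% higher and 5.48% lower. The shares were 7.79% of protein coding, 3.04% of retained intron and 2.95% of processed transcripts, and differences between these shares were not tested. Among transcripts with a mean of 50 counts or more, 17.1% of all and 9.27% of the labelled ones were called. It compares these 2 libraries and covers counting noise alone. With an edgeR exact test at the common dispersion, 0 labelled transcripts were called and 60 had an unadjusted p under 0.05, beside 8 called of all 43655 (0.0183%).

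The median log2 ratio of labelled transcripts, replicate 2 over replicate 1, was 0.10, beside 0.01 for all transcripts tested. With library totals in place of TMM the labelled median stood at 0.28 beside 0.19 for all, so both medians moved up together and the excess of about 0.1 stayed. The split of calls moved too, for all transcripts as for labelled ones. With library totals 53 of 66 called labelled transcripts were higher in replicate 2, or 80.3%, in place of 39.1%. Over all transcripts 753 of 1901 called were higher, in place of 289 of 2683, and 4.35% of all tested were called and 1.72% were called higher. The largest called falls were those of Vwc2-002, with 15 and 10 footprints, and Rnf26-002, with 14 and 12. The largest called rises were those of Slc30a9-008, with 1 and 31, and Mpg-002, with 2 and 38. All 4 rest on few counts in replicate 1.

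Ratios were lower at high footprint density. All tested transcripts were divided into 10 groups of nearly equal size by density. In the group of lowest density the labelled median was 0.27, beside 0.20 for all transcripts, and in the group of highest density it was -0.19 beside -0.29. The labelled median exceeded that of coding transcripts in 10 of 10 groups, by up to 0.16. It exceeded that of all transcripts in 9 of 10, with a difference of -0.01 in the other group. The difference was not tested.

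**Figure D5:**
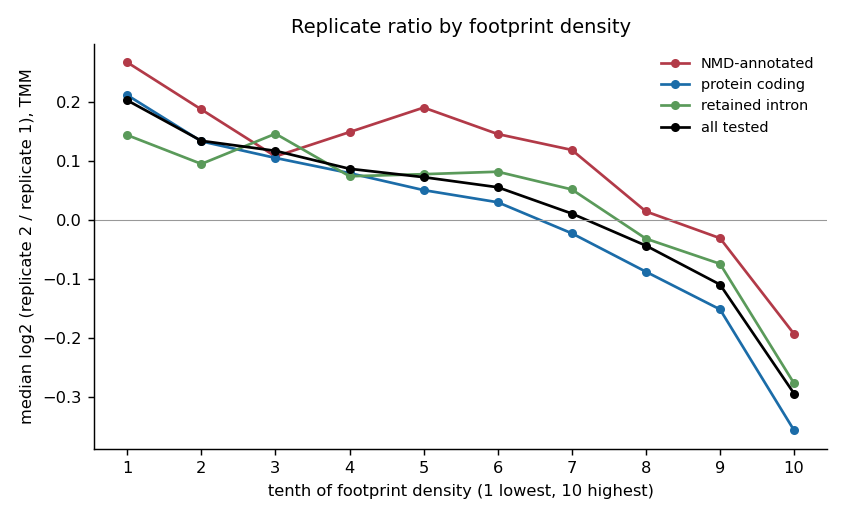
Median log2 ratio of replicate 2 over replicate 1, after TMM scaling, for transcripts that reached a mean of 10 counts, in 10 groups of footprint density over transcript length. Lines stand for NMD-labelled (red), protein coding (blue), retained intron (green) and all tested transcripts (black). All lines end lower than they begin, and the red line runs from 0.27 to -0.19.

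The division of footprints within genes was compared next. Fisher's exact test (two-sided) of labelled against other footprints by replicate was made for 1996 genes that reached the count of 10 and had other footprints. After Benjamini-Hochberg adjustment 0 genes were called (0%), and 102, or 5.11%, had an unadjusted p under 0.05. The same test called 2 of 3926 genes for retained introns (0.0509%) and 3 of 2887 for processed transcripts (0.104%). The lowest adjusted p for NMD was 0.157, shared by Tmed2 and Celf2. Tmed2, a cargo receptor of the early secretory pathway, had 7 of 116 labelled footprints in replicate 1 and 85 of 413 in replicate 2. Celf2, a splicing regulator, had 83 of 767 and 211 of 3190.

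The labelled share of a library is the product of what the labelled genes took of it and what the labelled transcripts took of those genes. All transcripts of the 3173 genes with a label took 19.0% of replicate 1 and 21.6% of replicate 2, a ratio of 1.14. Within these genes the labelled transcripts took 19.5% of the footprints in replicate 1 and 19.7% in replicate 2, a ratio of 1.01. The ratio of the overall labelled shares was 1.15. For retained introns the matching ratios were 1.07 between genes and 0.991 within.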

How the data were processed

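The authors deposited whole-number footprint counts per annotated transcript, 1 column per replicate, with no normalization, and the annotated lengths of each transcript. The submitters' processing notes name Trimmomatic 0.36, Bowtie2 2.2.6, SAMtools and the build GRCm38.p4. The assignment of shared or repeated fragments and the use of strand are not given in the sources used here.

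Levels are CPM of library totals. Log2 density ratios add 0.5 to each count, and replicate ratios a prior of 0.5 CPM. TMM factors (edgeR 4.0.16) used transcripts that reached a mean of 10 counts and were 0.938 and 1.07. DESeq2 1.42.0 gave alternative size factors. A quasi-likelihood test had no contrast to fit. Calls required an adjusted p under 0.05. Both tests were run on simulated data that held counting noise alone. Those data cannot show how the tests behave where libraries vary beyond counting noise.

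The members and the 9 gene lists were chosen with earlier results of these data known. Named genes were those with the 10 highest levels, the 10 highest shares, the 5 densest transcripts and up to 4 per list by count. The rule's 5 largest called rises and falls of share gave no gene, as none was called. Genes at the extremes of a list, the extreme called transcripts and the genes with the lowest Fisher p were named after their values were seen. No transcript sequence was used here. The values of 1 gene that the rule named are not reported here.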

Additional observations from a re-analysis of the deposited data

How the results depend on the processing

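Leaving out each replicate in turn gave an NMD share of footprints from 3.70% to 4.24%, from 1455 to 2263 genes, a median share per gene from 22.2% to 23.1% and a median density ratio from 0.087 to 0.093 on the log2 scale, against 0.097 with both. Within the genes that hold a label the NMD share was 19.6%. The median share per gene was 26.9% at a mean count of at least 50, 20.1% with a gene mean count of 10 alone and 28.7% over NMD and coding transcripts only. The median density ratio was 1.01 over coding length, 0.012 against the highest coding transcript and 0.12 at a mean count of at least 50. The median replicate log2 ratio of labelled transcripts was 0.28 with library totals, beside 0.19 for all transcripts tested. At a mean count of at least 50 it was 0.0145, beside -0.0996 for all. At a mean count of at least 1, added after the data were examined, it was 0.15, beside 0.053 for all. The edgeR exact test called 0 labelled transcripts in place of 69, and 8 of all transcripts in place of 2683; its dispersion came from the difference between the same libraries. Fisher's test called 0 genes in both alternatives. Leaving out genes with no coding transcript was chosen after the data were examined and gave 3.88% and 22.5%. At its other settings the exact binomial test called from 46 to 72 labelled transcripts, out of tested sets that differed with the count filter. At a mean count of at least 1 the 46 were 1.10% of the labelled ones tested, beside 3.17% of all. At a mean count of at least 50 the 72 were 9.27%, beside 17.1% of all. With DESeq2 size factors 70 were called (2.66%, beside 6.30% of all), and with library totals 66 (2.51%, beside 4.35%). No paired analysis was possible because there is 1 group. Counts under 10 in replicate 1 limit single transcripts most.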

Other observations

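Of the genes with no protein coding transcript, Gm28062 had the highest labelled level. Gm38393, named after its values were seen, had 217 and 517 labelled footprints on 2 transcripts that made up 28.9% of its annotated length and 90.6% ± 0.290 of its footprints (SD, n = 2). Labelled transcripts with no annotated 5' untranslated region, 1245 of the 3905 compared with coding transcripts, had median log2 density ratios per transcript nucleotide of -0.07 and 0.00 in replicates 1 and 2. The 2660 with such a region had 0.15 and 0.11.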
